A study of Oryza sativa Japonica Group with 96 samples.

Results

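The comparison described here sets the transcriptome of rice stem bases that carried an inducible copy of CRL1 against that of stem bases with an empty vector, 12 h after the inducer was added. It used the 3 arrays labelled DXC at 12 h and the 3 labelled DX at the same hour, 6 of the 96 arrays of the series, over all 36643 features of the array (a feature is a set of probes summarised to 1 value). The same difference at 0 h, before induction could act, and at 9 h is given beside it, each from 6 other arrays.

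All plants were Oryza sativa of the cultivar Taichung 65 and carried the crl1 mutation, DX and DXC alike. The DXC line had been transformed with pINDEX2, a binary vector for expression under dexamethasone, holding CRL1, and the DX line with the same vector without an insert. DXC is 1 transgenic line, so that a feature of its insertion site and an effect of CRL1 cannot be told apart, and the promoter that drives the insert is not given in the sources used here. Seedlings had grown for 5 days with 14 h of daylight and rested for 24 h in flasks before dexamethasone was added to 1 µM, in both lines. The inducer was washed out after 5 h, so the 12 h samples were taken in fresh medium. A sample pooled 10 to 15 stem bases, of which 8 to 12 were ground, and the experiment was run independently 3 times with both lines.

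CRL1 encodes a transcription factor of the LATERAL ORGAN BOUNDARIES domain family that acts downstream of auxin, and rice plants that lack it fail to start crown roots. Crown roots are the shoot-borne roots that make up most of the root system of a cereal. They start in the stem base, where cells near the vascular cylinder divide, form a root meristem and grow out through the stem. Auxin acts through ARF transcription factors, which Aux/IAA proteins hold back, while WOX homeobox genes, cytokinin, ethylene and gibberellin also take part in the formation and emergence of these roots.

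The deposited levels are on a log2 scale, so a difference of 1 is a fold change of 2, and differences are given as DXC minus DX. The 6 arrays at 12 h were alike in level, with medians of 4.63 to 4.69, SDs over features of 1.57 to 1.62 and correlations of 0.968 to 0.981 between arrays of 1 line. At 9 h the DX arrays stood apart, with SDs of 1.42 to 1.65 and correlations from 0.9 to 0.957 among themselves. This bears on every 9 h difference below. The DX arrays at 0 h were also less alike, with SDs of 1.51 to 1.60 and correlations of 0.943 to 0.955. The DXC arrays at 0 h had SDs of 1.63 to 1.65 and correlations of 0.974 to 0.98. That bears on the 0 h differences and on the changes from 0 h. Arrays also resembled each other in sets of 4 consecutive hours (0 to 9 h, 12 to 21 h and so on), a grouping that the labels do not give. The hours 9 and 12 lie on either side of a set boundary, so set and hour cannot be told apart in a change from 9 to 12 h or from 0 to 12 h. No feature could be tied to CRL1 by the annotation used, so the induction itself was not measured here.

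At 12 h, 304 features differed between the lines (limma, Benjamini-Hochberg adjusted p under 0.05, here "called"), 0.83% of those tested. Of these, 199 were higher in DXC (0.543%) and 105 lower (0.287%), and the median difference of all features was -0.01. At 9 h, 2968 features were called (8.1%; 2132 higher, 5.82%, and 836 lower, 2.28%; 5336 with the experiment as a block, and 506, 6394 or 410 without experiment 1, 2 or 3). At 0 h, 10 were called (0.0273%; 4 higher, 0.0109%, and 6 lower, 0.0164%; 19 with the experiment as a block, and 2, 0 or 6 without experiment 1, 2 or 3). Leaving out experiment 1, 2 or 3 brought the 12 h count to 91, 114 or 123, and the 6 arrays of 12 h fitted by themselves gave 134. The same fit of the 6 arrays of 9 h alone gave 83 and that of 0 h 3, so in that fit the 9 h count was below the 12 h count. In 48 features, 44 higher and 4 lower, the call held whichever experiment was left out.

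The higher set at 12 h was led by 2 unnamed genes that were not called at 0 h. LOC9271993, a protein-coding gene on chromosome 3 with no name in the tables used, was at 4.31, 3.66 and 3.99 on the DX arrays of experiments 1, 2 and 3 and at 7.93, 8.34 and 9.66 on the DXC arrays. The lowest DXC array was far above the highest DX array, and experiment 3 was the highest. The difference of 4.65 between the means of 3 arrays per line (SE 0.40; adjusted p = 1.67e-13) is 25.2-fold. This SE, like the others given here, rests on a variance pooled over all groups of line and hour in the series. In the limma fit of the 12 h arrays alone the adjusted p was 0.00662. The difference was 5.31 at 9 h and -0.42 at 0 h, where it was not called (adjusted p = 0.584). Whether LOC9271993 is CRL1 or a gene that responds to it could not be read from the tables. LOC4330584 was at 4.88, 4.91 and 4.72 in DX and at 8.07, 8.73 and 9.78 in DXC, again without overlap and with experiment 3 highest. It was 16.3-fold higher (4.02, SE 0.43; adjusted p = 8.64e-10), with 4.79 at 9 h and -0.23 at 0 h.

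LOC4330584 and LOC9268927 lie next to each other on chromosome 2 in the RefSeq gene order, and both were called higher. LOC9268927 was at 5.22, 5.52 and 4.87 in DX and at 7.27, 7.47 and 8.59 in DXC, a difference of 2.58 (SE 0.37; adjusted p = 2.94e-06) after 3.52 at 9 h. Among the 267 called genes with 1 symbol, 3 pairs of such neighbours were both called, each pair in 1 direction. How many such pairs 267 genes placed at random would give was not worked out, so nothing is read from this count.

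Further unnamed genes followed. LOC4327460 was higher by 2.84 (SE 0.37; adjusted p = 2.03e-07), 7.14-fold, but 4.73-fold without experiment 3. LOC9269942 was higher by 2.44 (adjusted p = 2.1e-05), and its DXC arrays lay close together at 6.78, 6.68 and 7.03 against 4.33, 4.12 and 4.71 in DX. LOC4325437 was at 3.24, 3.07 and 2.94 in DX and at 4.46, 5.18 and 6.71 in DXC. It was 5.16-fold higher (2.37; adjusted p = 2.53e-05) and 3.17-fold without experiment 3. LOC4333262 was higher by 2.13 (adjusted p = 2.57e-07) after 3.02 at 9 h. For all 5 of LOC4327460, LOC9268927, LOC9269942, LOC4325437 and LOC4333262 the difference at 0 h was between -0.16 and 0.45. In the limma fit of the 12 h arrays alone LOC4327460 (adjusted p = 0.0726), LOC4325437 (0.12) and LOC4333262 (0.0668) were not called. LOC9268927 (0.0276) and LOC9269942 (0.00403) were called in that fit.

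A pair of genes among those named was already higher in DXC before induction. LOC4331781 was at 4.47, 4.72 and 4.68 in DX and at 9.04, 7.72 and 8.02 in DXC at 12 h, 12.5-fold apart (3.64, SE 0.61; adjusted p = 8.74e-05, but 0.0878 without experiment 1). Its difference was 3.84 at 9 h and 2.84 at 0 h, the latter just short of the call (adjusted p = 0.054). LOC4331398 was higher by 1.99 at 12 h (adjusted p = 0.00108, but 0.101 without experiment 1), by 2.32 at 9 h and by 2.21 at 0 h (adjusted p = 0.00205). LOC9266913 was the mirror case among the lower genes. It was at 5.34, 5.37 and 5.91 in DX and at 3.41, 4.19 and 4.15 in DXC, a difference of -1.62 (SE 0.17; adjusted p = 2.56e-10) that had been -1.12 at 9 h and -1.29 at 0 h (adjusted p = 2.3e-06). In all, 15 of the 199 higher and 12 of the 105 lower features had the larger part of their 12 h difference already at 0 h, and 6 of the 10 features called at 0 h were called at 12 h in the same direction.

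**Figure D1:**
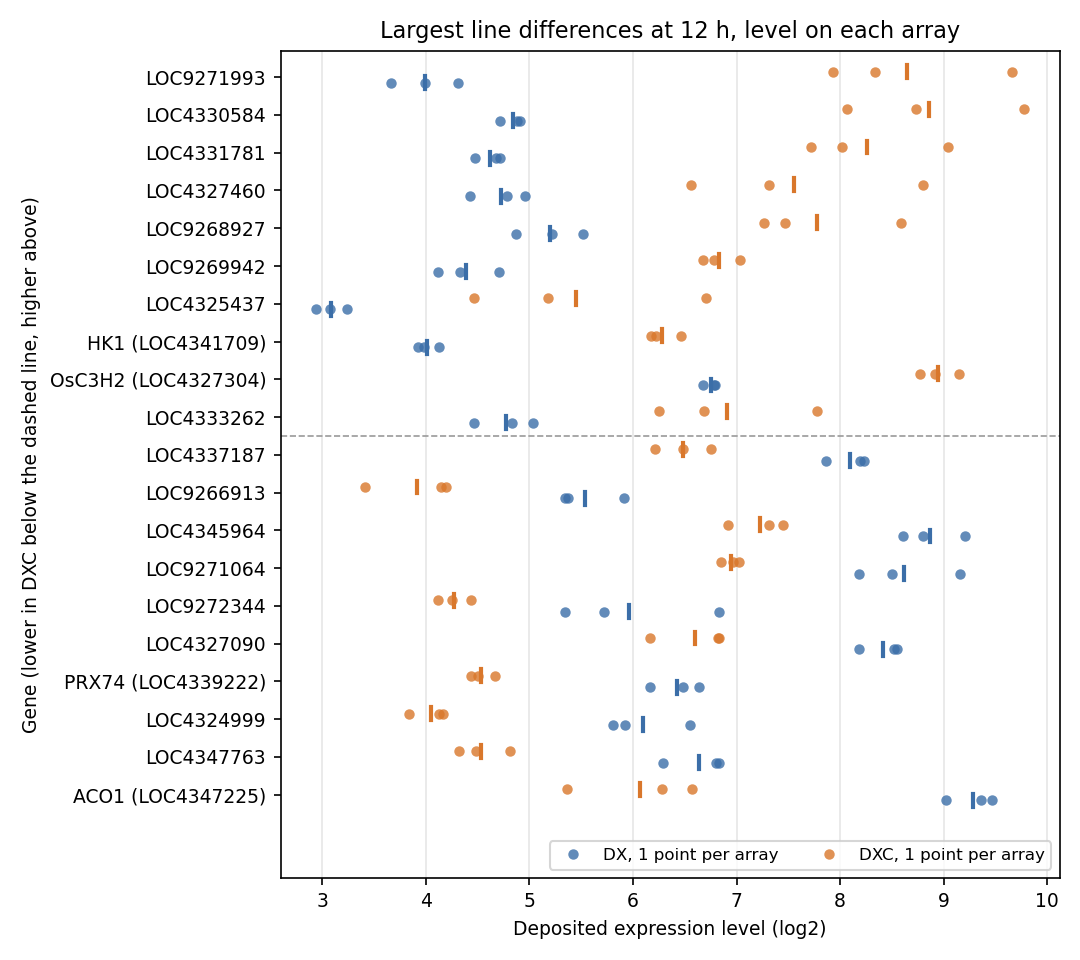
Deposited level (log2, horizontal axis) at 12 h of the 10 higher and 10 lower genes with the largest differences, 1 point per array (3 DX in blue, 3 DXC in orange) with vertical bars at the line means. In all 20 genes the points of the lines do not overlap, from LOC9271993 with means 4.65 apart to ACO1 with means 3.21 apart the other way; these genes were chosen for their 12 h differences, and 15.8% of all features do not overlap.

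Of the called features, 36 higher and 13 lower ones belong to genes with a name. HK1, also named MHZ1, encodes a histidine kinase that acts in the ethylene response of rice roots. Its DX arrays were at 3.92, 3.98 and 4.13 and its DXC arrays at 6.17, 6.22 and 6.46, 2 tight groups. HK1 was 4.82-fold higher at 12 h (2.27, SE 0.32; adjusted p = 1.14e-06), after 2.72 at 9 h and 0.03 at 0 h, and the call held without any 1 experiment. OsC3H2, also named OsDOS, is a CCCH zinc finger gene whose product delays leaf senescence. It was at 6.79, 6.68 and 6.78 in DX and at 8.92, 8.77 and 9.15 in DXC, 2.19 higher (SE 0.29; adjusted p = 4.45e-07), against 1.90 at 9 h and 0.81 at 0 h (adjusted p = 0.304).

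CYP734A6 encodes a cytochrome P450 that inactivates brassinosteroids. Its levels were 7.15, 7.07 and 7.22 in DX and 8.65, 9.20 and 8.96 in DXC, without overlap. The difference was 1.79 (SE 0.25; adjusted p = 9.41e-07), 2.06 at 9 h and 0.23 at 0 h. CBL4, a calcineurin B-like calcium sensor, was at 3.71, 3.57 and 3.93 in DX and at 4.84, 5.24 and 6.00 in DXC. The difference of 1.62 (adjusted p = 0.000111) was no longer called without experiment 2 (0.0804) or with the 12 h arrays alone (0.0675). PM1, which encodes a membrane protein of the AWPM-19 family, was higher by 1.69 (adjusted p = 0.00107), and the call was lost without experiment 1 (0.0717) or 2 (0.119). The difference of PM1, like that of OsC3H2, was larger at 12 h than at 9 h (0.94; adjusted p = 0.0581).

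GDH2, a glutamate dehydrogenase gene, was higher by 1.27 (adjusted p = 0.000135) after 1.99 at 9 h. HMG1, listed by that name with no role taken from it here, was at 4.0, 4.04 and 4.04 in DX and at 5.45, 5.42 and 6.00 in DXC, 1.60 higher (SE 0.21; adjusted p = 2.03e-07). GA20OX3 encodes a gibberellin 20-oxidase, an enzyme of gibberellin synthesis. It was at 5.45, 5.32 and 5.69 in DX and at 6.39, 6.56 and 7.44 in DXC. Its difference of 1.31 (adjusted p = 0.00215) followed 1.78 at 9 h. It was not called without experiment 1 (0.0598) or 2 (0.172), nor with the 12 h arrays alone (0.115).

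The lower set was led by ACO1, the gene of an ACC oxidase, which makes ethylene from its precursor ACC. ACO1 stood at 9.02, 9.36 and 9.47 on the DX arrays and at 6.28, 6.57 and 5.36 on the DXC arrays at 12 h. Every DXC array was below every DX array by over 2 log2 units. The difference of -3.21 (SE 0.35; adjusted p = 1.38e-09) is 9.26-fold and was called without any 1 experiment. It was -1.58 at 9 h (adjusted p = 0.00208) and 0.35 at 0 h, so the line means crossed between 0 and 9 h and lay furthest apart, of these 3 hours, at 12 h.

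LOC4347763 was at 6.83, 6.29 and 6.80 in DX and at 4.81, 4.48 and 4.32 in DXC, again without overlap. The difference of -2.10 (SE 0.34; adjusted p = 3.22e-05) was called whichever experiment was left out. At 9 h its difference was -0.26 and at 0 h 0.84, neither called. PRX74 encodes a class III peroxidase, a family of secreted enzymes that act on the cell wall. It was at 6.16, 6.48 and 6.64 in DX and at 4.67, 4.44 and 4.50 in DXC, a difference of -1.89 (SE 0.41; adjusted p = 0.00436). It stood at -0.53 at 9 h and 0.75 at 0 h, and the 12 h call was lost without experiment 2 (0.168) or 3 (0.162).

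Other unnamed genes were lower by similar amounts. LOC4327090 had -1.81 at 12 h (adjusted p = 3.17e-05, but 0.0857 without experiment 1) against -0.25 at 9 h and 0.04 at 0 h. LOC4324999 had -2.05 (adjusted p = 0.000508, but 0.172 without experiment 3) and LOC4337187 -1.61 (adjusted p = 0.00122, but 0.205 without experiment 2). These differences were found with non-overlapping arrays in each case. LOC9271064 had -1.67 (adjusted p = 0.00698), lost without experiment 2 (0.169) or 3 (0.265). LOC4345964 had -1.65 (adjusted p = 0.00873), lost without experiment 1, 2 or 3 (0.127, 0.176 and 0.0672). LOC9272344 had -1.69 (adjusted p = 0.00122), lost without experiment 2 (0.0673) or 3 (0.386), and its 0 h difference was already -1.20.

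The other lower genes with names had smaller differences, and each of the 4 described next lost its call in at least 2 of the fits without 1 experiment. TUB6, a beta-tubulin gene, was at 7.14, 6.94 and 7.31 in DX and at 5.64, 5.92 and 6.01 in DXC, a difference of -1.27 (adjusted p = 0.00984; 0.612 without experiment 1 and 0.0661 without 2). BHLH172, also named BU1, encodes a helix-loop-helix protein that promotes brassinosteroid responses. It was at 4.10, 4.22 and 4.81 in DX and at 3.15, 3.00 and 3.41 in DXC, a difference of -1.19 (adjusted p = 0.00327; 0.265 without experiment 2 and 0.117 without 3) after -1.0 at 9 h. COI2, a gene of the COI family of jasmonate receptors, had -0.86 (adjusted p = 0.0334; 0.204 to 0.307 without 1 experiment) and -0.02 at 9 h. Hox21, a homeodomain-leucine zipper gene, had -0.80 (adjusted p = 0.000363; 0.0504 without experiment 1 and 0.147 without 3) after -0.69 at 9 h.

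The 2 directions differed in their calls at 9 h. Of the 199 higher features, 168 (84.4%) had also been called higher at 9 h, against 5.82% of all features. These 168 are 7.88% of the 2132 called there. Of the 105 lower features, 29 (27.6%) had been called lower at 9 h, against 2.28% of all features, and are 3.47% of the 836 called there. The 9 h DX arrays of experiments 1, 2 and 3 had unequal SDs of 1.49, 1.65 and 1.42. Median DX levels at 12 h were 4.74 in the higher set and 5.98 in the lower. How far these unequal arrays enter the contrast between the directions was not tested. No feature was called in opposite directions at the 2 hours. The median of the higher set was 0.96 at 12 h, 1.28 at 9 h and 0.10 at 0 h, and that of the lower set -0.91, -0.46 and 0.11. The 12 h difference was the smaller one in 138 of the higher features and the larger one in 101 of the lower. These features were chosen by their 12 h values, which favours a large difference at that hour.

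The change from 9 to 12 h itself was called in no feature (limma; 0 of 36643, with 3991 at an unadjusted p under 0.05; 15 with sets of both lines as a random block, 1 without experiment 3 and 9383 with array weights). For ACO1 the change was -1.63 (adjusted p = 0.424), for LOC4347763 -1.84 (0.286) and for HK1 -0.46 (0.604). The SE of a change between hours was larger than that of a difference at 1 hour, with a median over features of 0.29 against 0.20. The change from 0 to 12 h was called in 94 features (0.257%; 51 higher, 0.139%, and 43 lower, 0.117%; 162 with the experiment as a block, 69 higher and 93 lower). After quantile normalization 52 of 76 were higher, and after scaling to a common SD 49 of 74. Of the features called at 12 h, 48 of the 199 higher and 29 of the 105 lower were among these 94; the counts share the 12 h arrays. The count of 94 was 15 to 17 with 1 experiment left out.

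**Figure D2:**
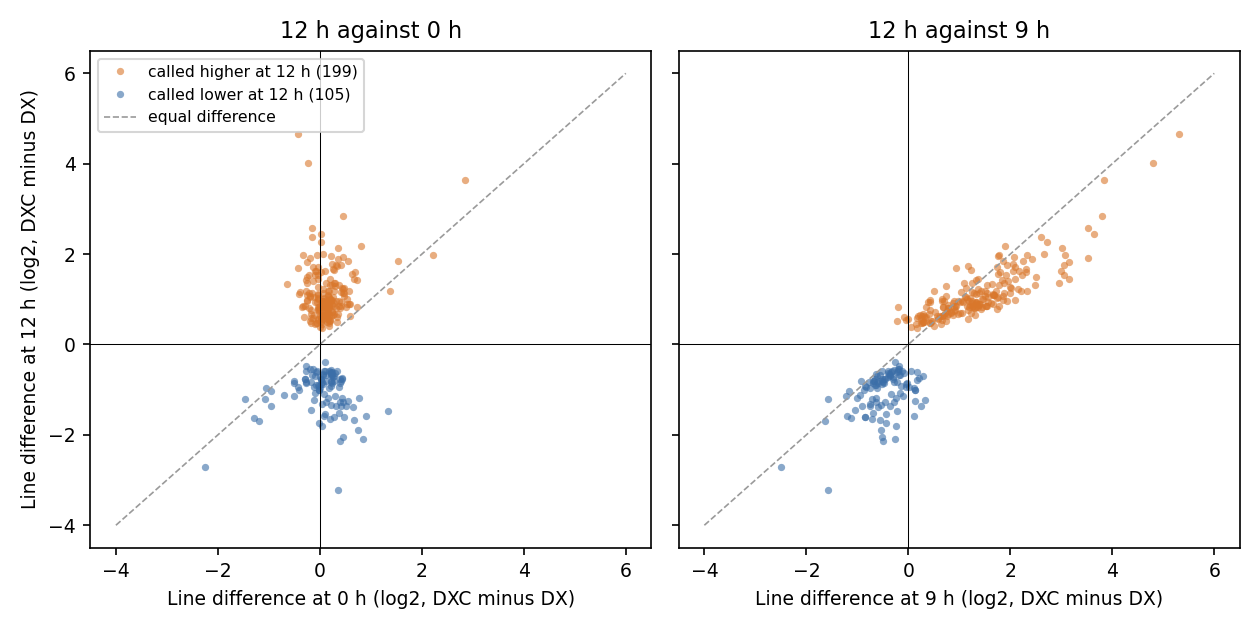
Line difference (log2, DXC minus DX) at 12 h on the vertical axis against that at 0 h (left) and 9 h (right) for the 199 features called higher at 12 h (orange) and the 105 called lower (blue). At 9 h most higher features lie to the right of the line of equal difference (138 of 199) and most lower features below it (101 of 105), while at 0 h the medians of the sets are 0.10 and 0.11.

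**Figure D3:**
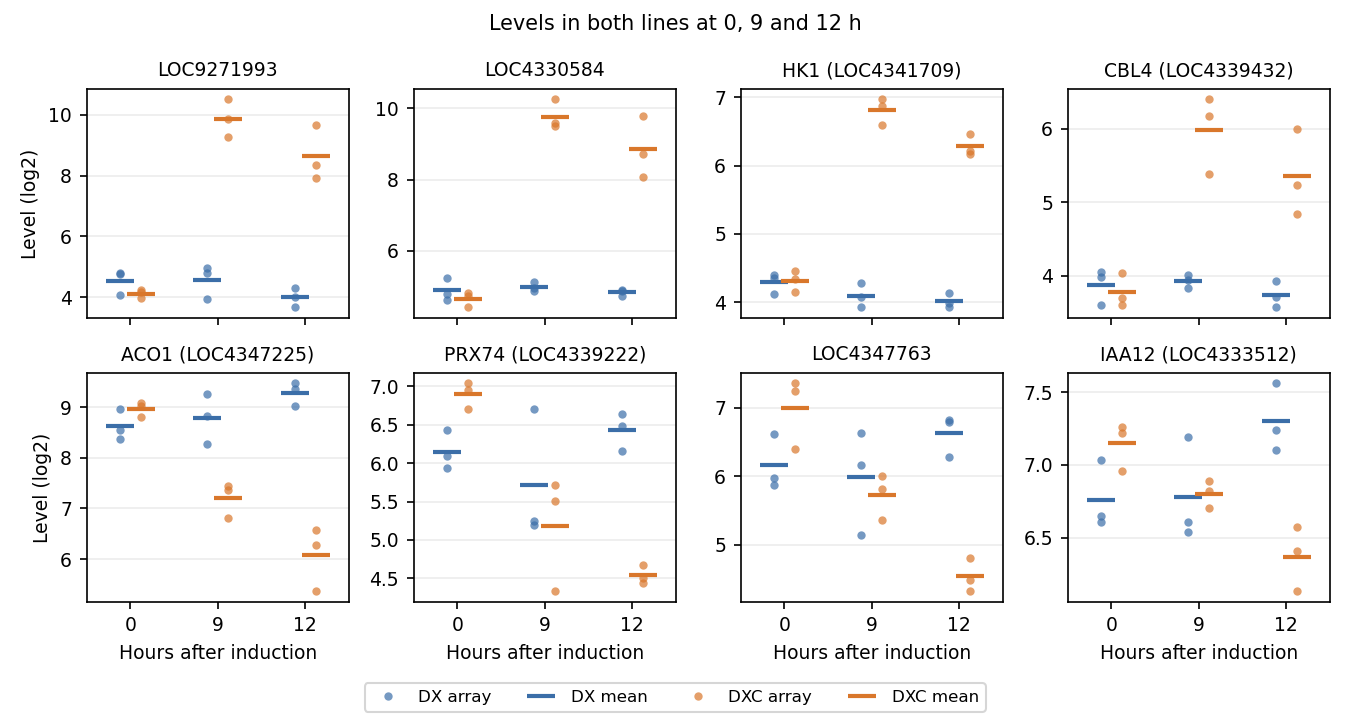
Levels (log2) of 8 genes on each array at 0, 9 and 12 h after induction, DX in blue and DXC in orange, with horizontal bars at the means of 3 arrays. LOC9271993, LOC4330584, HK1 and CBL4 are higher in DXC at 9 and 12 h, while ACO1, PRX74, LOC4347763 and IAA12 have their lowest DXC mean at 12 h.

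Crown root regulators were represented by 14 features, and none was called at 12 h, against 0.83% of all features. An unadjusted p under 0.05 was found for 7 of them and for 7.22% of all features, and 1 was called with the experiment as a block. That 1 was WOX11, whose homeobox protein promotes the emergence and growth of crown roots. WOX11 was at 5.20, 5.50 and 5.98 in DX and at 4.99, 5.04 and 4.42 in DXC, with no overlap. Its difference was -0.74 (SE 0.21; adjusted p = 0.0866, and 0.0185 with the experiment as a block; 0.0309, 0.363 and 0.949 without experiments 1, 2 and 3), against -0.61 at 9 h and 0.52 at 0 h. QHB (listed also as WOX5), the homeobox gene of the root quiescent centre, was at 4.0, 4.39 and 4.07 in DX and at 4.13, 4.49 and 4.71 in DXC. The QHB groups overlapped, and its difference of 0.29 (adjusted p = 0.932) followed one of 0.92 at 9 h that was called (adjusted p = 0.00152).

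IAA23, an Aux/IAA gene that maintains the root quiescent centre, had 0.68 (adjusted p = 0.177) at 12 h and 0.73 at 9 h (adjusted p = 0.0293). The homeobox gene hox14 had 0.57 (adjusted p = 0.589) and 1.03 at 9 h (adjusted p = 0.00843). The other 10 features had differences from -0.60 (IAA13, LOC4334069; adjusted p = 0.395) to 0.15 (NAL1). Among them were the cytokinin response regulator RR2 (-0.30), the cytokinin oxidase gene CKX4 (-0.46), WOX10 (0.04), HOX1 (0.01), Hox28 (-0.53) and RAA1 (-0.02). The name ARF16 matched different genes, LOC4327785 (listed first as ARF1, -0.21) and LOC9270361 (-0.39). The median of the 14 was -0.11.

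Auxin response genes gave 3 calls among 28 Aux/IAA features, all lower, against 0.287% called lower of all features. At 9 h, 5 of the 28 features had been called higher and 1 lower, against 5.82% and 2.28% of all features. IAA12 was at 7.10, 7.24 and 7.56 in DX and at 6.41, 6.13 and 6.57 in DXC, a difference of -0.93 (SE 0.22; adjusted p = 0.0125), against 0.02 at 9 h and 0.38 at 0 h. IAA15 was at 6.01, 6.24 and 6.56 in DX and at 5.31, 5.58 and 5.65 in DXC. Its difference was -0.76 (SE 0.15, adjusted p = 0.00117), against -0.47 at 9 h and 0.43 at 0 h. Neither gene had overlapping arrays. IAA24 had -0.57 (adjusted p = 0.0471). Without experiments 1, 2 and 3 the adjusted p was 0.039, 0.399 and 0.195 for IAA12, 0.0777, 0.0563 and 0.0774 for IAA15, and 0.383, 0.201 and 0.504 for IAA24. In all, 20 of the 28 were below 0 (median -0.18) and 11 had an unadjusted p under 0.05 (7.22% of all features). IAA6 was the highest at 1.02 (adjusted p = 0.0741), after 1.78 at 9 h (adjusted p = 9.87e-06). None of the 19 ARF, 10 GH3 and SAUR or 6 auxin transport features was called at 12 h. At 9 h, 3 ARF features and 2 GH3 and SAUR features had been called, all higher.

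The lists of hormones other than auxin held 8 calls among 129 features (6.2%), against 0.83% of all features and 1.79% of those whose gene has a name. The lists were chosen with earlier results known, so nothing is read from that share. In two-component signalling, the pathway of cytokinin, the list of 23 features also held HK1, described above for its role in the ethylene response. On that list 2 features were higher, HK1 and the response regulator gene ORR4 (0.62, adjusted p = 0.0097). In cytokinin metabolism 1 of 17 was higher, LOGL4, whose family of enzymes frees active cytokinin. LOGL4 was at 4.82, 4.99 and 4.98 in DX and at 5.38, 5.88 and 6.85 in DXC, 1.11 higher (adjusted p = 0.0334) after 1.67 at 9 h. Neither the ORR4 nor the LOGL4 call held without any 1 experiment (adjusted p from 0.0777 to 0.604).

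Of 20 gibberellin features, a list that by name also holds synthases of other diterpenes, 2 were higher, GA20OX3 and gid1, the gene of the gibberellin receptor (0.82; adjusted p = 0.0161, but 0.927 without experiment 1 and 0.0725 without 3). Of the 11 features of the ethylene list, which did not hold HK1, ACO1 was the 1 called. Of 22 abscisic acid features, 2 were higher. They were ABA8OX2, the gene of an abscisic acid 8'-hydroxylase that breaks the hormone down (0.95; adjusted p = 0.00359, but 0.0504 without experiment 1 and 0.344 without 2), and the dehydrin gene RAB16B (0.82; adjusted p = 0.0202, but 0.927 without experiment 1 and 0.132 without 3). RAB16B had -0.20 at 9 h and -0.35 at 0 h. None of the 36 features of the jasmonate list was called. That list did not hold COI2, the gene of the jasmonate receptor family that was called lower (-0.86).

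Growth and division genes had 1 call at 12 h. Of 28 DNA replication features, 12 were called higher at 9 h (median 0.52), against 5.82% of all features, and 1 at 12 h (median 0.03), against 0.543%. Their median at 0 h was 0.19, with none called. That 1 was RFC4, a subunit gene of the clamp loader of DNA polymerase (0.88; adjusted p = 0.0461, and 0.199 to 0.571 with 1 experiment left out). MCM5, of the replicative helicase, went from 0.64 at 9 h to 0.23, and ORC3, of the origin recognition complex, from 1.09 to 0.03. The change of the list from 9 to 12 h had a median of -0.42, with no member called. None of 23 cytosolic ribosome features (median -0.01, with 0.42 at 9 h and 0.34 at 0 h), 9 core histones, 11 mitotic cyclin and CDKB features or 10 D-type cyclins was called at 12 h.

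Cell wall genes had calls in both directions. Of all features, 0.543% were called higher and 0.287% lower. Of 47 features of wall loosening, the expansin gene EXP16 was higher (0.77; adjusted p = 0.0101, but 0.172 without experiment 1 and 0.466 without 3) and EXP6 lower (-0.91; adjusted p = 0.0229, and 0.0693 to 0.617 with 1 experiment left out). Of 2 class III peroxidases found by name PRX74 was called lower and PRX112 was not (-0.95, adjusted p = 0.237). Lists were matched to gene symbols and synonyms, so members of the family without such a name were not looked at. None of 31 secondary wall features was called. SCR1, a GRAS gene of ground tissue patterning, was the 1 lower member of the 3 SCR and SHR features (-0.60; adjusted p = 0.0396, and 0.149 to 0.446 with 1 experiment left out), and Hox21 the 1 of 34 homeodomain-leucine zipper features.

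Of the remaining lists, 3 had 1 call each, all higher, against 0.543% called higher of all features. They were the sucrose synthase gene SUS4 among 15 hypoxia features (0.96; adjusted p = 0.000173, but 0.0816 without experiment 1), MADS17 among 31 MADS-box features (0.96; adjusted p = 0.00107, but 0.104 without experiment 1 and 0.0505 without 2) and the heat stress factor gene HSF05 among 47 heat shock features (0.48; adjusted p = 0.0154, but 0.575 without experiment 2 and 0.338 without 3). No call fell on the 8 WOX, 7 ROP, 20 defence, 8 clock or 27 aquaporin features. Over all 33 lists, 20 of 672 features were called (2.98%), 12 higher and 8 lower. The share was 0.83% of all features and 1.79% of those whose gene has a name. Nothing is read from this, as the lists were chosen with earlier results known. With 1 experiment left out, 6 or 7 list features were called.

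**Figure D4:**
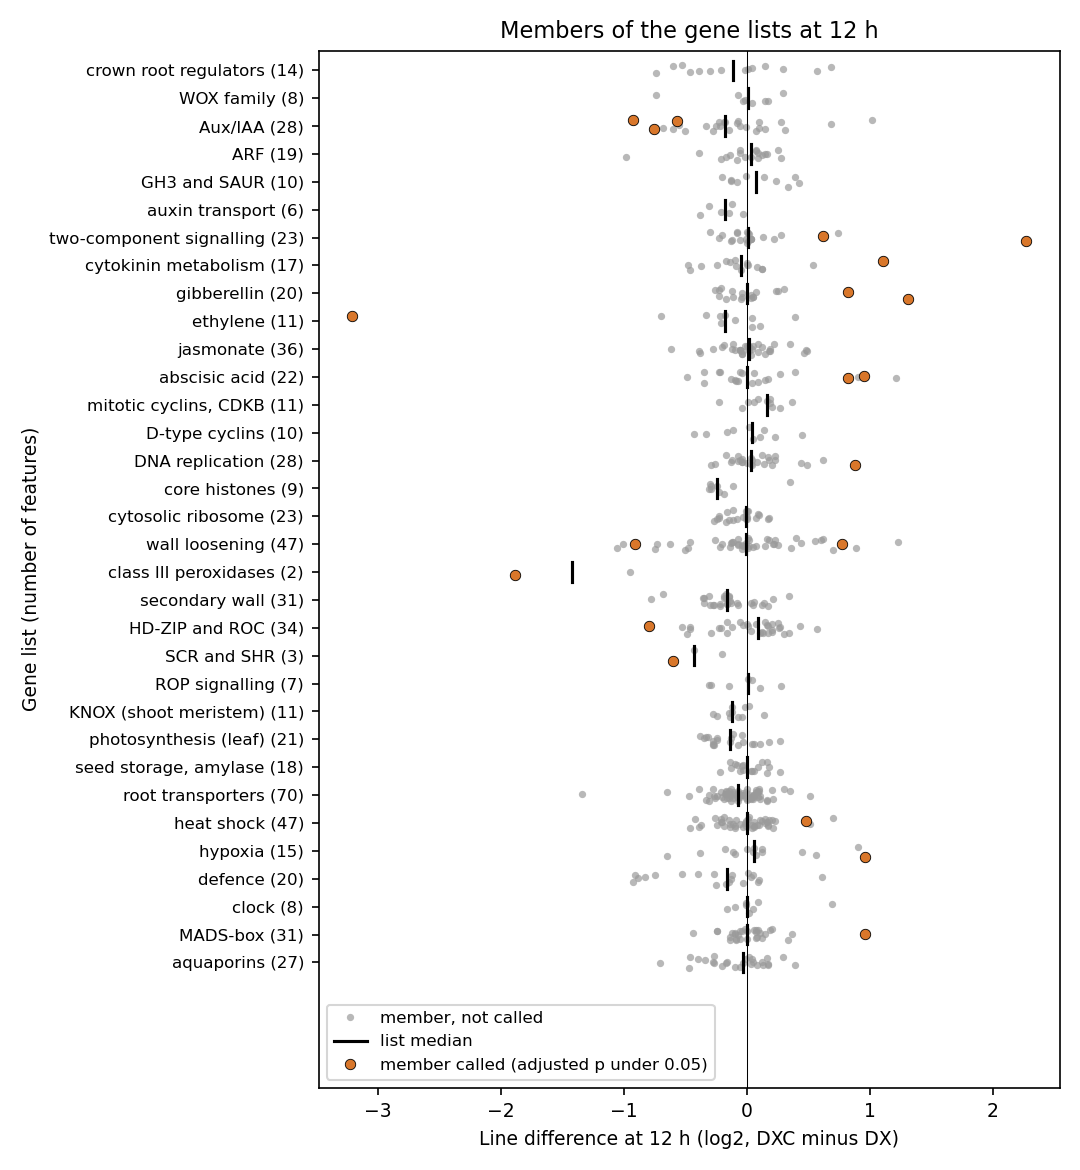
Line difference at 12 h (log2, DXC minus DX) of every member of the 33 gene lists, with the number of features in brackets. Grey points were not called, orange points had an adjusted p under 0.05 and black bars are list medians; 20 members are orange, the outermost being HK1 at 2.27 and ACO1 at -3.21.

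Marker genes of the organs that a stem base sample can hold were measured beside these results. The stem base and its meristem were represented by 11 KNOX features, and OSH1, the defining gene of the shoot meristem, was at 5.38 in DX and 5.11 in DXC (adjusted p = 0.929). The list median was -0.12, with 9 of the 11 below 0. Its summed linear level was 335.5 to 371.3 in DX and 311.9 to 337.3 in DXC. The mean log2 level of the KNOX list was 4.72 to 4.73 in DX and 4.61 to 4.66 in DXC, without overlap. Leaf photosynthesis features (21, median -0.14, 16 below 0, none called) summed to 2454 to 2977 in DX and 2285 to 2388 in DXC. Every DXC array was lower in this sum, in which high features weigh most. Their mean log2 levels overlapped, with 6.09 to 6.32 in DX and 6.03 to 6.13 in DXC. Root features (70, median -0.07, none called) summed to 1895 to 2002 and 1826 to 1892, again without overlap, and seed features (18, none called) to 205.6 to 230.9 and 215.3 to 227.0. Log2 levels of an array have no 0, so no marker can be said to be absent. The part of leaf, root or meristem tissue in the called differences was not tested, and in such bulk samples fewer cells of a type and less RNA per cell cannot be told apart.

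The experiments carried the called differences unequally. In experiment 3 the median difference was 1.13 for the higher set and -1.05 for the lower, against 0.89 and 0.89, and -0.94 and -0.86, in experiments 1 and 2. The DXC array of experiment 3 was the highest of the 3 in 134 of the 199 higher features. All 304 features had the same sign in the 3 experiments, and 198 of the 199 and 104 of the 105 had no overlap between the lines, against 15.8% of all features. The 304 were called on these same arrays, which favours 1 sign and no overlap, so these counts are no separate support.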

How the data were processed

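Stem base RNA was measured on 96 arrays, 1 sample each. The authors deposited 1 table of log2 expression values, already normalized. The submitters' processing notes name GCRMA, a background correction, normalization and summary per feature, with no version given in the sources used here. The number of arrays limits the precision. All arrays were fitted as 32 groups of line and hour with limma 3.58.1 in R 4.3.3 (lmFit, eBayes with trend, 64 residual degrees of freedom). Contrasts were DXC minus DX at 12, 9 and 0 h and the change of that difference between hours. The p-values were adjusted by Benjamini-Hochberg over 36643 features per contrast. The fit was tested on simulated data with independent arrays and 1 spread per feature. Those data held no array sets and no unequal spread between groups, so that test does not cover either.

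By the platform annotation 24161 features had 1 symbol, 90 had several and 12392 had none; names came from RefSeq assembly ASM3414082v1. Samples, members and 33 lists were chosen with earlier results of these data known, and 26 list entries were left out as homonyms after the annotation was read, 3 of them after their values were seen. Named genes had 1 symbol and 1 sign in all experiments. They were the 10 higher and 10 lower with the largest difference, the 8 and 8 with a name, up to 4 each way in the change from 9 h (none was called), all crown root members, up to 3 of every other list, and 3 genes known from earlier results. IAA6, MCM5, ORC3 and OSH1 were named after their values were seen.

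Replicate numbers mark independent experiments, per the series' design text, so they pair the lines. Deviations of same-numbered arrays at 12 h correlated by -0.01, 0.02 and 0.11, against -0.08 to 0.06 for other numbers. They correlated by 0.21, 0.27 and -0.1 at 9 h (other numbers -0.34 to 0.27) and by 0.23, 0.22 and 0.03 at 0 h (-0.22 to 0.01). Alternatives varied the block, weights, scaling, filter, adjustment and arrays. Promoter motifs and sequences were not analysed here.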

Additional observations from a re-analysis of the deposited data

Results flagged for a closer look

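The line difference of 28 named genes changed between 0 h and 12 h by limma's test of the change itself (adjusted p under 0.05). All values are on the log2 scale, as the 12 h difference minus the 0 h difference. The 2 hours lie in different array sets, so set and hour cannot be told apart here.

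Among the genes that rose in DXC relative to DX, LOC9271993 changed by 5.07 (adjusted p = 9.35e-09), LOC4330584 by 4.26 (1.23e-05) and LOC9268927, its neighbour, by 2.74 (0.00384). LOC4325437 changed by 2.52, LOC9269942 by 2.43, LOC4327460 by 2.39 and LOC4333262 by 1.78. Of the genes with names, the histidine kinase gene HK1 changed by 2.24 (adjusted p = 0.00617), PM1 by 2.11, the calcium sensor gene CBL4 by 1.72, HMG1 by 1.57, CYP734A6, the brassinosteroid-inactivating P450, by 1.56, and GDH2 by 1.31. MADS17 changed by 1.22 and the dehydrin gene RAB16B by 1.17, each from a difference below 0 at 0 h. HSF05 changed by 0.66 (adjusted p = 0.0449).

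Among the genes that fell, ACO1 changed by -3.56 (adjusted p = 1.05e-05), LOC4347763 by -2.94 (0.000192), PRX74 by -2.64 (0.0194) and LOC4324999 by -2.50. LOC9271064 changed by -2.32, LOC4337187 by -2.09 and LOC4327090 by -1.85. BHLH172 changed by -1.62, IAA12 by -1.32, IAA15 by -1.19 (adjusted p = 0.000888) and Hox21 by -1.02. WOX11 changed by -1.27 (adjusted p = 0.0409), from a difference of 0.52 at 0 h to one of -0.74 at 12 h, neither called by itself. The 0 h differences of these 12 genes were between 0.04 (LOC4327090) and 0.84 (LOC4347763) and none was called; the choice of genes by a negative change favours a 0 h value above 0.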

How the results depend on the processing

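None of the 46 named genes called at 12 h changed direction under any of the settings tried. Of these, 43 to 46 were called with array sets as a random block, robust or untrended variances, a joint adjustment over 15 hours, quantile normalization or SD scaling, and all 46 with the replicate block or array weights. Leaving out the 25% of features with the lowest levels kept all 40 that it tested. LOC4325437, IAA24, ORR4, RAB16B, SCR1 and MADS17 were not tested there, as they were among those lowest features. Their means at 12 h were 3.08 to 3.55 in DX and 2.69 to 5.45 in DXC. Fewer stayed with only the arrays of 0, 9 and 12 h (35), only the 12 h arrays (24) or 1 experiment left out (24 to 26). IAA24 was lost under most of these settings. The cause was not tested.

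With the experiment as a block, which pairs the lines, the calls were 408 at 12 h (261 higher and 147 lower, all 304 of the 12 h calls among them), 5336 at 9 h, 19 at 0 h and 162 for the change from 0 h; WOX11 was called at 12 h (adjusted p = 0.0185), and RFC1 and EXP9 as well, while no named call was lost. Array sets of a line as a random block gave 271 at 12 h (181 higher and 90 lower, 247 of the 304 among them), 5805 at 9 h and 36 at 0 h. Sets of both lines gave 527 at 12 h, 8586 at 9 h, 185 at 0 h, 15 for the change from 9 h and 235 for that from 0 h. Array weights gave 824, 18471, 232, 9383 and 351, and 46 list members. Only the arrays of the hours compared gave 134 at 12 h, 83 at 9 h, 3 at 0 h and 8 list members. Only the arrays of 0, 9 and 12 h gave 161, 1807 and, for the change from 0 h, 14. A joint adjustment over 15 hours gave 902 at 9 h. A minimum difference of 1 left 135 at 12 h and 671 at 9 h. With 1 experiment left out the counts were 91 to 123 at 12 h, 410 to 6394 at 9 h (6394 without experiment 2), 0 to 6 at 0 h, 0 to 1 for the change from 9 h, 15 to 17 for that from 0 h and 6 to 7 list members. Settings added after the data were seen, the arrays of 12 to 21 h alone and all but those of 0 to 9 h, gave 330 and 317 at 12 h.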

Other observations

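A few genes on no list, picked after their values were seen, are given as single values with nothing read from what they share. The brassinosteroid synthesis gene DWARF (LOC4333399, also C6-oxidase or CYP85A1) was higher in DXC by 1.01 (SE 0.15; adjusted p = 9.04e-06) after 1.44 at 9 h and -0.03 at 0 h, and no omission of an experiment ended its call. The RNA-dependent RNA polymerase gene RDR2 (LOC4336092) had 0.89 (adjusted p = 0.0414) after 1.67 at 9 h, SHL2 (LOC4323938), of the same enzyme family, 0.62 (0.038) and AGO2 (LOC4336991), an Argonaute gene, 0.56 (0.0447). None of these 3 was called with 1 experiment left out (adjusted p from 0.0913 to 0.743). The calmodulin-like gene CML22 (LOC4336258) had 1.19 (adjusted p = 0.000283) and the calcium pump gene ACA5 (LOC4336912) 0.86 (adjusted p = 1.16e-05), and both calls held with any 1 experiment left out. MSP1 (LOC4324355), a receptor kinase gene that limits sporocyte number, had 0.96 (adjusted p = 0.000115), 1.05 at 9 h and 0.32 at 0 h, and was not called without experiment 1 (0.0646).

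Features called at 12 h lay on all 12 chromosomes. Of all 24161 features with 1 symbol, 267 were called. The highest share was on chromosome 3 (46 of 3092 features with 1 symbol, 1.49%) and the lowest on chromosome 10 (6 of 1278, 0.469%). Chromosome 8 had 0.678%, and the other shares were 0.978% to 1.31%. Whether the shares differ was not tested.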
